A study of Mus musculus with 6 samples.

Results

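The 10 immediate early genes described here are *Fos*, *Fosb*, *Jun*, *Junb*, *Egr1*, *Ier2*, *Atf3*, *Nr4a1*, *Nr4a3* and *Btg2*. They were picked by gene symbol from the 37979 genes of an RNA-seq table of the hindlimb gastrocnemius (GAS) muscle. The study compared male mice that lack Kvβ2, a cytoplasmic subunit of voltage-gated potassium channels encoded by *Kcnab2*, with wildtype (WT) mice. Both genotypes came from crosses of mice carrying 1 null allele (Kvβ2 +/-), so the knockout (KO, Kvβ2 -/-) animals lacked the gene in every tissue from conception and the WT animals were age-matched. The mice were 20 weeks of age and received no treatment. Each of 3 WT and 3 KO mice gave 1 library of total RNA, and the libraries of each genotype carry the numbers 1, 7 and 8. The sample is whole muscle, so fewer cells of a type and less RNA per cell cannot be told apart. The time of day of tissue collection is not given in the sources used here.

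Immediate early genes are switched on within minutes of a stimulus, without the need for newly made protein, when kinases act on factors such as SRF and CREB that already sit at their promoters. Most of their messages are short-lived, so the amount in a tissue can change quickly. In skeletal muscle, contraction, stretch, injury and stress hormones are known inducers. Fos and Jun proteins pair through a leucine zipper to form the factor AP-1, EGR1 binds GC-rich DNA through zinc fingers, and the NR4A proteins are nuclear receptors that act without a known hormone.

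The promoters are shown as background, since CREB is among the known regulators of these genes. RefSeq promoters (GRCm38.p6, 250 bases before to 50 bases after the annotated start) were matched by symbol for 8 of the 10 genes. *Egr1* and *Ier2* were not matched. The pentamer TGACG, the core of a cyclic AMP response element, was found on either strand in 7 of the 8 promoters and in 20.8% of 32851 RefSeq promoters of the same length. The promoter of *Jun* was the one without it. The full palindrome TGACGTCA, which contains the pentamer on both strands, was found in 1 of the 8 (*Btg2*) and in 1.79% of all promoters. TATAAA was found in 2 of the 8 (*Fos* and *Junb*) and in 13.6% of all. The AP-1 site TGANTCA (7.81% of all promoters), the CArG box bound by SRF (1.63%), the EGR site GCGTGGGCG (0.612%) and the NR4A site AAAGGTCA (1.51%) had no match in these 8 windows, while GCGGGGGCG had a match in *Fosb* and *Nr4a1* and in 2.91% of all. Such matches describe the letters and do not show binding. The shares over all promoters were not matched for GC content, and a link between the matches and the levels was not tested. The 5 promoters below belong to genes that varied widely between mice (*Fos*, *Fosb*, *Btg2*) and to the pair with the lowest p-values between genotypes (*Nr4a1*, *Junb*). Capitals mark TATAAA and TGACG, which reads CGTCA where it lies on the other strand.
*Fos* (chr12:85473640-85473939, plus strand): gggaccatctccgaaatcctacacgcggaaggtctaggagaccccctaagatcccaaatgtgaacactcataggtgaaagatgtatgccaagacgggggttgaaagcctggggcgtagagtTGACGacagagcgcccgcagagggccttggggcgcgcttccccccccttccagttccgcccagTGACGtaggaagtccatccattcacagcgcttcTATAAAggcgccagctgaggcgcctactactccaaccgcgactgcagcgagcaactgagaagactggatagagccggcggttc
*Fosb* (chr7:19309996-19310295, minus strand): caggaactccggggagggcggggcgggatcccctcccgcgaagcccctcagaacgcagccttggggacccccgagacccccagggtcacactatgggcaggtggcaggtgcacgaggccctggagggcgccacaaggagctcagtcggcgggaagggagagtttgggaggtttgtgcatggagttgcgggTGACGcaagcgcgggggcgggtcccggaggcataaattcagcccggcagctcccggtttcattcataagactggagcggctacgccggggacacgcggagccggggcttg
*Btg2* (chr1:134079106-134079405, minus strand): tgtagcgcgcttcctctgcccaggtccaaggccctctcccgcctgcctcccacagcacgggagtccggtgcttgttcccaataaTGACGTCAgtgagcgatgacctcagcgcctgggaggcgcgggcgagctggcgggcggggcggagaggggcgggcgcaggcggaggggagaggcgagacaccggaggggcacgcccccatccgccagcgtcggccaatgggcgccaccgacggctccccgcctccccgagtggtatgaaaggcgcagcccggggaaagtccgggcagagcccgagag
*Nr4a1* (chr15:101266596-101266895, plus strand): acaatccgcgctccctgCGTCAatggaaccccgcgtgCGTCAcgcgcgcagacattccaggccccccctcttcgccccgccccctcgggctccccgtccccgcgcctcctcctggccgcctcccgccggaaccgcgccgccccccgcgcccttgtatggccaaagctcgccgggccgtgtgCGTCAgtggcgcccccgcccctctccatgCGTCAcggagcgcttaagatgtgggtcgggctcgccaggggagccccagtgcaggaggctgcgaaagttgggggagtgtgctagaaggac
*Junb* (chr8:84978699-84978998, minus strand): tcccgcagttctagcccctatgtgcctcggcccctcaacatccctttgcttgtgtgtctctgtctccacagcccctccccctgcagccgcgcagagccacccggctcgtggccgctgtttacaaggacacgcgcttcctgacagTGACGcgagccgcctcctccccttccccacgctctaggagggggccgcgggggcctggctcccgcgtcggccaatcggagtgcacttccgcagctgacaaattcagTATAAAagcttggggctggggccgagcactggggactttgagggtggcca
In positions counted from the start, the *Nr4a1* window holds 4 copies of the pentamer, the nearest at -40 to -36. This window lies inside the annotated gene (101254269 to 101274795, 4 transcripts), so it is not at the outermost start of *Nr4a1*. The *Fos* window holds copies at -129 to -125 and -66 to -62 and TATAAA at -33 to -28. In *Junb* TATAAA covers positions 1 to 6, so the annotated start of the RefSeq entry lies on it.

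Levels are in FPKM (fragment number corrected for transcript length and library depth), which the authors computed with Cufflinks, and where 3 values of a genotype are listed they are those of replicates 1, 7 and 8 in that order. The depth, estimated from the steps between low FPKM values, was 20300000 to 21000000 fragments in the WT and 14900000 to 19400000 in the KO libraries. The targeted gene *Kcnab2* was at 0.10 to 0.233 FPKM in the WT libraries, was 0.0151 FPKM in KO replicate 7 and was listed at 0 in the other KO libraries. Markers of the myofiber (10 of 10 in the table, among them *Ckm* and *Acta1*) summed to 41583 to 60584 FPKM in WT muscle, against 60723 to 67727 FPKM in KO muscle. Differences were tested with limma on log2(FPKM + 0.1) for the 12334 genes that averaged 0.5 FPKM or more, with adjustment of p-values over all of them. Of the 10 genes, 8 passed this filter, and *Fosb* and *Nr4a3* did not.

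None of the 8 tested genes passed an adjusted p under 0.05 (limma), where 0.324% of all tested genes did, 0.251% higher and 0.073% lower in KO muscle. The mean of log2(FPKM + 0.1) was higher in KO than in WT muscle for 10 of the 10 genes, as it was for 51% of all tested genes, but the size was uneven. *Nr4a1*, *Junb* and *Ier2* were higher in every KO than in every WT library, which held for 18.3% of all tested genes. *Fos*, *Fosb*, *Egr1* and *Btg2* had a range within the KO libraries that was larger than the difference between the genotypes. *Jun*, *Atf3* and *Nr4a3* overlapped between the genotypes with smaller differences, and their range within the KO libraries was also larger than the difference. At an unadjusted p under 0.05, 3 of the 8 tested genes were higher in the KO mice (*Nr4a1*, *Junb* and *Ier2*) and 0 were lower, against 15.3% and 10.9% of all tested genes. The median log2 fold change of the 8 was 1.34, beside 0.01 for all tested genes.

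**Figure D1:**
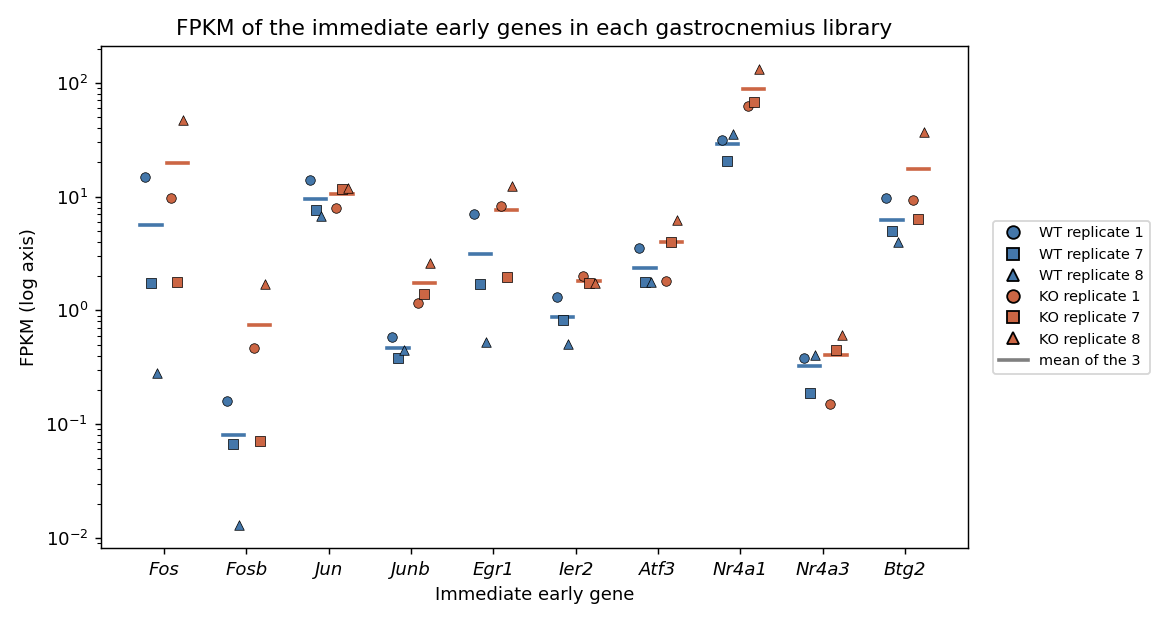
FPKM (log axis) of the 10 immediate early genes in each library, with WT in blue, KO in red-orange, a marker shape for each replicate number and a line at the mean of the 3 libraries. The WT and KO points of *Nr4a1*, *Junb* and *Ier2* do not overlap, while *Fos* runs from 0.281 to 47.3 FPKM with both genotypes spread over that range.

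By level, *Nr4a1* led in both genotypes, with a WT mean of 29.1 FPKM. It was followed in WT muscle by *Jun* (mean 9.44 FPKM), *Btg2* (6.28 FPKM), *Fos* (5.63 FPKM), *Egr1* (3.11 FPKM) and *Atf3* (2.36 FPKM), and each neighboring pair of these 5 genes overlapped in its WT libraries. *Ier2* (0.876 FPKM), *Junb* (0.471 FPKM), *Nr4a3* (0.326 FPKM) and *Fosb* (0.0806 FPKM) followed, of which *Ier2* overlapped *Junb* and *Junb* overlapped *Nr4a3*. FPKM is scaled for transcript length. No correction for GC content, which was highest for *Junb* and *Ier2*, was made for these levels, so their order is approximate. All 10 genes were above 0 in every library.

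*Fos* (ENSMUSG00000021250, GRCm38 chromosome 12, 85473890 to 85477273, plus strand) encodes the founding Fos subunit of AP-1. It had WT values of 14.9, 1.73 and 0.281 FPKM against KO values of 9.67, 1.77 and 47.3 FPKM. KO replicate 8 was highest, WT replicate 1 came second, and KO replicate 7 and WT replicate 7 were nearly equal. The highest WT library exceeded the lowest by 52.9-fold, the highest KO library exceeded the lowest by 26.8-fold, and the means of the genotypes differed by 3.48-fold. The log2 fold change was 2.12 (95% interval -1.38 to 5.63, adjusted p = 0.396, exact permutation test, two-sided, p = 0.4). It lay between 0.865 without WT replicate 8 and 3.51 without WT replicate 1. The values rest on about 12 fragments in WT replicate 8 and about 1453 in KO replicate 8.

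*Fosb* (ENSMUSG00000003545, chromosome 7, 19302696 to 19310051, minus strand) encodes a second Fos subunit that also dimerizes with Jun proteins. It gave 0.161, 0.0676 and 0.0129 FPKM in the WT libraries and 0.465, 0.0717 and 1.69 FPKM in the KO libraries. As for *Fos*, KO replicate 8 was highest and WT replicate 8 lowest, and the replicate 7 libraries of the genotypes were close to each other. KO replicates 1 and 8 lay above all WT libraries. WT replicate 8 rests on about 1 fragment and KO replicate 8 on about 96. The gene was under the filter, with a difference of 1.71 in mean log2(FPKM + 0.1) (exact permutation test, two-sided, p = 0.2). The difference was 0.871 without KO replicate 8, 2.56 without KO replicate 7 and 0.583 with a pseudocount of 1 FPKM. When the filter was dropped, its adjusted p was 0.326 (limma).

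*Egr1* (ENSMUSG00000038418, chromosome 18, 34859823 to 34864984, plus strand), the zinc finger factor used in many tissues as a mark of recent stimulation, gave 7.08, 1.72 and 0.531 FPKM in the WT libraries and 8.33, 1.97 and 12.5 FPKM in the KO libraries. The order of the 6 libraries was that of *Fosb*, with KO replicate 8 at the top and WT replicate 8 at the bottom. Its log2 fold change was 1.58 (95% interval -0.64 to 3.80, adjusted p = 0.323, exact permutation test, two-sided, p = 0.2). Leaving out WT replicate 8 lowered it to 0.738, leaving out KO replicate 8 to 1.05, and leaving out WT replicate 1 gave 2.49. The WT libraries spanned 3.51 on the log2 scale and the KO libraries 2.60, so both ranges were wider than the difference.

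*Btg2* (ENSMUSG00000020423, chromosome 1, 134075170 to 134079120, minus strand) encodes an antiproliferative co-regulator of the BTG/TOB family, induced by p53 and growth factors, and is not itself a DNA-binding factor. It read 9.82, 5.0 and 4.03 FPKM in WT muscle, and 9.38, 6.41 and 37.0 FPKM in KO muscle. KO replicate 8 stood above the other 5 libraries, and KO replicate 1 lay under WT replicate 1. The log2 fold change was 1.15 (95% interval -0.33 to 2.63, adjusted p = 0.282, exact permutation test, two-sided, p = 0.3). Without KO replicate 8 it was 0.41.

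*Fos*, *Fosb*, *Egr1* and *Btg2* thus shared a split of the libraries, in which KO replicates 1 and 8 and WT replicate 1 lay above KO replicate 7 and WT replicates 7 and 8. The split was noticed after the values were known. It was found for these 4 of the 10 genes and for 2.36% of all tested genes. KO replicate 8 was the highest library for 8 of the 10 genes and WT replicate 8 the lowest for 7, and WT replicate 1 was the highest WT library for 8. For these separate counts the shares over all tested genes were not computed. KO replicate 8 highest and WT replicate 8 lowest held jointly for 5 of the 10 genes and for 1.93% of all tested genes. Averaged over the 8 tested genes, the log2 value centered on each gene's mean was 1.51 in KO replicate 8, 0.37 in KO replicate 1, 0.33 in WT replicate 1, -0.02 in KO replicate 7, -0.85 in WT replicate 7 and -1.34 in WT replicate 8. The summed levels of endothelial, fibroblast, macrophage, smooth muscle, Schwann cell and adipocyte markers overlapped between the genotypes, and none of these sums was highest in KO replicate 8. Endothelial markers summed to 65.2 to 91.0 FPKM in WT muscle, against 78.9 to 93.0 FPKM in KO muscle, and macrophage and leukocyte markers (8 of 9 in the table) to 20.5 to 42.1 FPKM against 29.2 to 66.4 FPKM. The sums were 746 to 806 against 792 to 1041 FPKM for fibroblast, 74.2 to 106 against 78.7 to 106 FPKM for smooth muscle, 29.3 to 110 against 33.3 to 142 FPKM for Schwann cell and 226 to 426 against 276 to 534 FPKM for adipocyte markers. Blood cell markers (4 of 6 in the table) were at 64.9 to 98.2 FPKM in WT and 112.5 to 228 FPKM in KO muscle. Satellite cell markers were at 11.2 to 17.7 and 17.9 to 18.3 FPKM. The blood, satellite cell and myofiber sums did not overlap between the genotypes and were each highest in KO replicate 8. The lead was narrow for myofiber markers (67727 against 67131 FPKM in KO replicate 1). It was also narrow for satellite cell markers (18.31 against 18.28 FPKM in KO replicate 7). WT replicate 1 was lowest for the myofiber and satellite cell sums. Gene by gene, the median log2 fold change of the 6 tested adipocyte markers was 1.83 (1.76 after correction for GC content), above that of the immediate early genes, with 4 higher at an unadjusted p under 0.05 and 3 without overlap between the genotypes. Of the 7 tested smooth muscle and pericyte markers, 5 had all KO libraries above all WT libraries and 1 had all below (median log2 fold change 0.566, 0.239 after correction for GC content), against 18.3% and 16.2% of all tested genes. None of these markers passed an adjusted p under 0.05 (limma). No marker on any of these lists was at 0 in every library. The part of these cell types in the result was not tested.

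**Figure D2:**
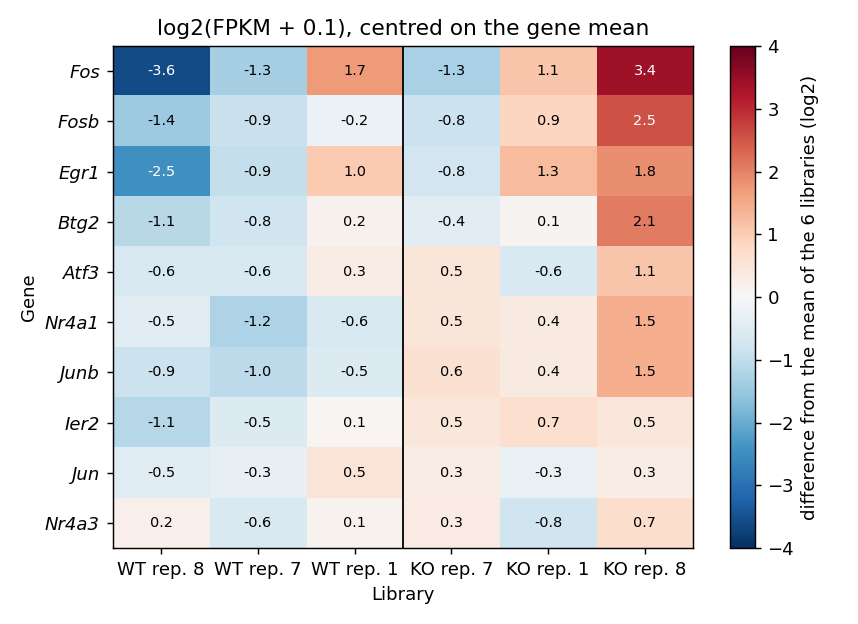
log2(FPKM + 0.1) of each gene minus its mean over the 6 libraries, with genes in rows and libraries in columns, WT left and KO right of the line, and red above and blue below the mean. *Fos* goes from -3.6 in WT replicate 8 to 3.4 in KO replicate 8, and *Fos* and *Egr1* in WT replicate 1 (1.7 and 1.0) lie on the side of KO replicate 1 (1.1 and 1.3).

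The spread between mice of 1 genotype was large for these genes compared with other genes. The SD within a genotype, on the log2 scale, was 2.5 for *Fos*, 1.58 for *Egr1*, 1.04 for *Btg2* and 0.73 for *Atf3*, beside a median of 0.217 over all tested genes. Ranked among all tested genes, *Fos* was at the 98.8th, *Egr1* at the 98.3rd, *Btg2* at the 97.3rd and *Atf3* at the 95th percentile. *Nr4a1*, *Jun*, *Junb* and *Ier2* had an SD of 0.43 to 0.51 and ranked between the 85.2nd and the 89.4th percentile. The ranking was not matched for level. *Junb* and *Ier2* rest on few fragments, and the part of fragment number in their SD was not tested. For 7 of the 10 genes the range within the WT libraries was larger than the difference between the genotypes on the log2 scale.

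**Figure D3:**
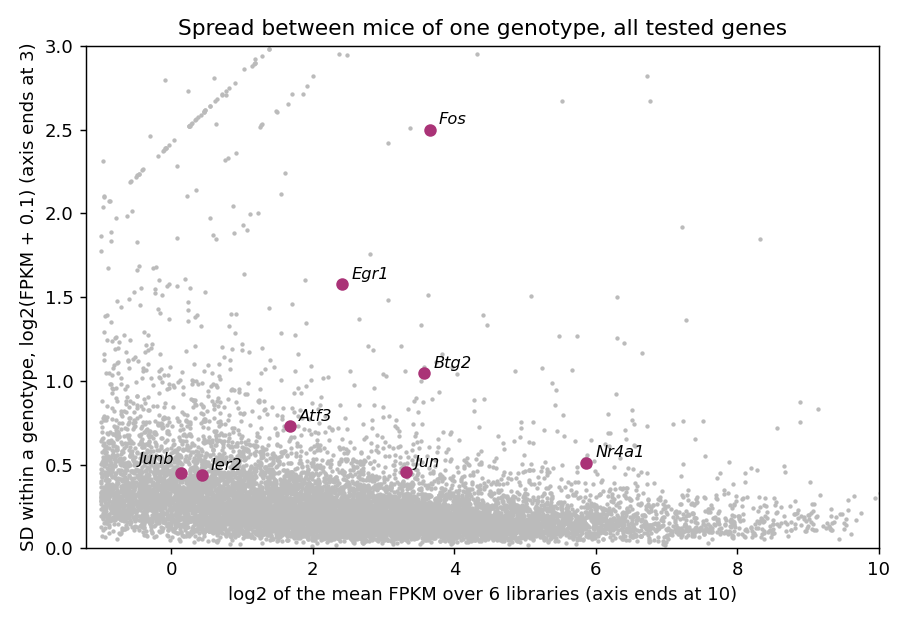
SD of log2(FPKM + 0.1) between mice of a genotype against log2 of the mean FPKM for all tested genes (gray), with the 8 tested immediate early genes in purple. The axes leave out 131 genes, and *Fos* (2.5), *Egr1* (1.58) and *Btg2* (1.04) stand far above the median of 0.217.

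*Nr4a1* (ENSMUSG00000023034, chromosome 15, 101254269 to 101274795, plus strand) encodes the orphan nuclear receptor NUR77, which in muscle is induced by contraction and adrenergic signals and acts on genes of glucose metabolism. It had WT values of 31.3, 20.7 and 35.3 FPKM against KO values of 62.3, 67.7 and 133 FPKM. Every KO library exceeded every WT library, and the KO mean of 87.6 ± 39.3 FPKM (SD, n = 3) was 3.01-fold the WT mean of 29.1 ± 7.58 FPKM (SD, n = 3). WT replicate 1, which was high for *Fos* and *Egr1*, was not set apart here. The log2 fold change was 1.53 (standard error 0.32, 95% interval 0.79 to 2.28, adjusted p = 0.0708, limma). Without 1 library at a time its range was 1.19 to 1.74. The exact permutation test gave p = 0.1, the smallest two-sided p that 3 against 3 allow.

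*Nr4a3* (ENSMUSG00000028341, chromosome 4, 48045153 to 48086447, plus strand), which encodes the related receptor NOR1, did not share this separation. It gave 0.384, 0.188 and 0.406 FPKM in the WT libraries and 0.15, 0.452 and 0.614 FPKM in the KO libraries. KO replicate 1 was the lowest of the 6 libraries and KO replicate 8 the highest, so the KO libraries enclosed the WT libraries. The difference in mean log2(FPKM + 0.1) was 0.16 (exact permutation test, two-sided, p = 0.8), and without KO replicate 8 it was -0.15. The gene was under the filter and rests on about 12 to 54 fragments per library.

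*Junb* (ENSMUSG00000052837, chromosome 8, 84974484 to 84978718, minus strand) encodes a Jun subunit of AP-1 that is known to help maintain muscle mass. It read 0.584, 0.382 and 0.448 FPKM in WT muscle, and 1.17, 1.40 and 2.63 FPKM in KO muscle. No KO library overlapped a WT library, and the WT libraries were close to each other. The KO mean was 1.73 ± 0.783 FPKM (SD, n = 3), against a WT mean of 0.471 ± 0.103 FPKM (SD, n = 3). Its log2 fold change was 1.62 (standard error 0.34, 95% interval 0.82 to 2.41, adjusted p = 0.0716, limma), with a range of 1.29 to 1.84 when each library was left out. The level rests on about 13 to 20 fragments in the WT and 29 to 68 in the KO libraries. A short annotated transcript of *Junb* shares 173 bases of exon with *Prdx2* on the other strand, which was at 84.6 to 108 FPKM, and the longest transcript shares 0. Whether the quantification used strand is not given in the sources used here.

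*Jun* (ENSMUSG00000052684, chromosome 4, 95049034 to 95052222, minus strand), the other Jun subunit and a target of JNK, differed little between the genotypes. It had WT values of 13.9, 7.63 and 6.80 FPKM against KO values of 7.89, 11.8 and 11.9 FPKM. WT replicate 1 was the highest library, and KO replicate 1 was close to WT replicate 7. The log2 fold change was 0.20 (95% interval -0.47 to 0.87, adjusted p = 0.682, limma), and it lay between 0.00 and 0.51 when each library was left out. *Jun* shares 232 bases of exon with an antisense gene (BC042782), which was at 1.47 to 2.48 FPKM, and the same limit on strand applies.

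*Atf3* (ENSMUSG00000026628, chromosome 1, 191170296 to 191218039, minus strand) encodes a leucine zipper factor of the ATF/CREB family that responds to stress and can pair with Jun proteins. It gave 3.52, 1.78 and 1.77 FPKM in the WT libraries and 1.82, 3.99 and 6.28 FPKM in the KO libraries. KO replicates 7 and 8 lay above all WT libraries, while KO replicate 1 was level with WT replicates 7 and 8. The log2 fold change was 0.66 (95% interval -0.40 to 1.72, adjusted p = 0.385, exact permutation test, two-sided, p = 0.2). It was 1.13 without KO replicate 1 and 0.26 without KO replicate 8.

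*Ier2* (ENSMUSG00000053560, chromosome 8, 84661331 to 84662852, minus strand) encodes a small nuclear protein induced by growth factors. It read 1.30, 0.818 and 0.508 FPKM in WT muscle, and 2.0, 1.73 and 1.72 FPKM in KO muscle. The KO libraries were nearly equal and lay above all WT libraries, and KO replicate 8 was not set apart. The KO mean was 1.82 ± 0.159 FPKM (SD, n = 3), against a WT mean of 0.876 ± 0.401 FPKM (SD, n = 3). The log2 fold change was 1.06 (standard error 0.31, 95% interval 0.32 to 1.79, adjusted p = 0.104, limma), and 0.755 to 1.36 when each library was left out. About 15 to 46 fragments per library lie behind these values.

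Most genes of this group are rich in GC (median 55.7% over the 8 tested), and the difference was computed again after each library was corrected for its dependence on exon GC content. The GC content was 62.6% for *Junb*, 60.9% for *Ier2*, 56.1% for *Nr4a1* and 49.7% for *Btg2*, beside a median of 50.1% over all tested genes. After the correction the log2 fold change was 1.14 for *Nr4a1* (unadjusted p = 0.0105, adjusted p = 0.341, limma), 0.95 for *Junb* (unadjusted p = 0.0365, adjusted p = 0.440) and 0.40 for *Ier2* (unadjusted p = 0.319, adjusted p = 0.732). *Btg2* kept its value at 1.17, *Fos* was at 1.85 and *Egr1* at 1.21, and *Jun* turned to -0.15. The median over the 8 tested genes was 1.05. At an unadjusted p under 0.05, 2 of the 8 remained (*Nr4a1* and *Junb*), where 10.8% of all genes passed after the correction and 26.2% before it.

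The number of genes past the threshold also depended on the weight of each library. With limma's array weights, which count a library for less where it departs from the fitted values over all genes, WT replicate 7 had a weight of 6.12 and WT replicate 1 a weight of 0.355. In that fit 7 of the 8 tested genes passed an adjusted p under 0.05, as 25.5% of all tested genes did, and *Jun* was the exception (adjusted p = 0.0866). Their adjusted p lay between 0.00669 and 0.0381 and the median log2 fold change of the 8 was 2.06. WT replicate 1, which had high *Fos*, *Egr1* and *Btg2*, counted least in that fit.

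**Figure D4:**
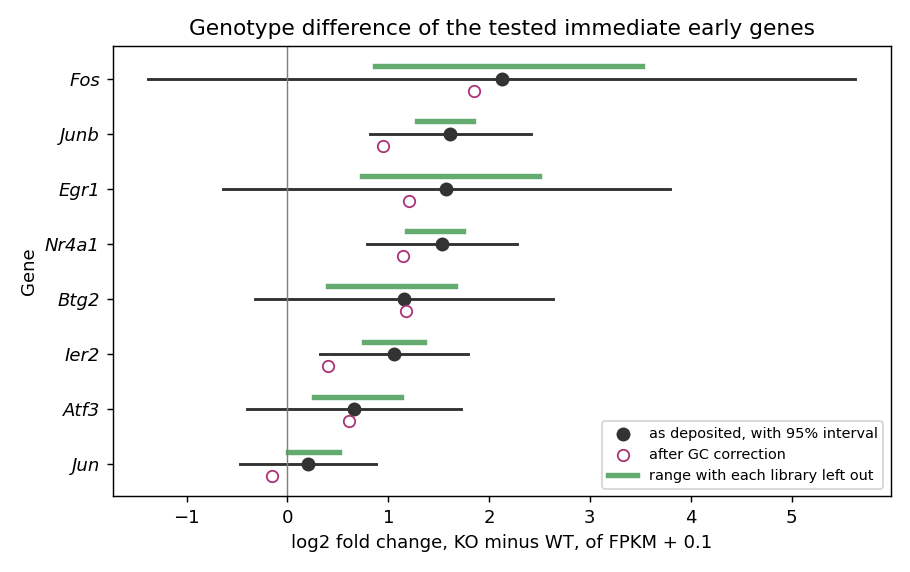
log2 fold change, KO minus WT, of the 8 tested immediate early genes (points, with 95% intervals as thin lines), the value after correction for GC content (open circles) and the span of values without 1 library at a time (green bars). The intervals of *Nr4a1*, *Junb* and *Ier2* lie above 0 while those of *Fos* (-1.38 to 5.63) and *Egr1* (-0.64 to 3.80) cross it.

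Among the tested genes above 0 in every library with a mean of at least 1 FPKM, those whose levels over the 6 libraries lay closest to the mean centered profile of the group included *Gm129*, *Dusp1*, *Zfp771* and *Fhit*. Closeness is the root mean square difference on the log2 scale, with a median of 0.945 over 10670 genes. The genes were picked by this measure, so their library order and genotype difference follow in part from the choice. *Gm129*, also known as *Ciart* and a repressor within the circadian clock, came closest with 0.27. It had WT values of 12.2, 3.78 and 2.63 FPKM against KO values of 15.0, 8.47 and 27.6 FPKM, in the same order of libraries as *Fosb* and *Egr1* (log2 fold change 1.59, adjusted p = 0.158, limma). *Dusp1*, an immediate early phosphatase that switches off MAP kinases, followed with 0.341. It gave 58.0, 20.5 and 22.8 FPKM in the WT libraries and 42.5, 38.7 and 78.8 FPKM in the KO libraries (log2 fold change 0.75, adjusted p = 0.301, limma). WT replicate 1 stood above KO replicates 1 and 7 for this gene. The zinc finger gene *Zfp771* and *Fhit*, a diadenosine triphosphate hydrolase, were at 0.351 and 0.404. Among the group itself the same measure ran from 0.329 for *Btg2* to 1.46 for *Fos*, whose swings were larger than the mean profile.

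A list of 45 other immediate early and early response genes gave the wider program, of which 36 were tested. None passed an adjusted p under 0.05 (lowest 0.0916, limma), 30 had a higher and 6 a lower mean log2 level in KO muscle, and the median log2 fold change was 0.444. At an unadjusted p under 0.05, 7 were higher and 1 was lower, the lower being *Homer1* (log2 fold change -0.47, adjusted p = 0.145). Of all tested genes, 15.3% were higher and 10.9% lower, and the share that was lower on this list was below that of all genes. Of the 36, 6 had all KO libraries above all WT libraries, a share below the 18.3% of all tested genes. All KO libraries lay below all WT libraries for 1 gene of the list, against 16.2% of all tested genes. After correction for GC content the median was 0.135, and 2 genes were left at an unadjusted p under 0.05, where 10.8% of all genes passed. The spread between mice was wide here too, with 12 of 36 genes above the 90th percentile of all tested genes. That ranking was also not matched for level.

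The largest differences on that list were those of *Csrnp1*, *Sik1* and *Arc*. *Csrnp1*, a nuclear protein induced by AXIN1, had WT values of 0.178, 0.161 and 0.376 FPKM against KO values of 0.640, 0.779 and 1.07 FPKM (log2 fold change 1.49, adjusted p = 0.0962, limma). *Sik1*, a kinase gene induced through CREB that restrains CREB co-activators, gave 1.57, 1.25 and 1.65 FPKM in the WT libraries and 3.19, 2.26 and 6.33 FPKM in the KO libraries (log2 fold change 1.22, adjusted p = 0.0983, limma). Both separated the genotypes, as *Nr4a1* did. *Arc*, best known in synapses, overlapped, with a log2 fold change of 0.94 and an adjusted p of 0.264 (limma). *Nr4a2*, the remaining NR4A receptor, had a log2 fold change of 0.23 (adjusted p = 0.822) and *Jund*, the remaining Jun gene, one of 0.12 (adjusted p = 0.805), and both overlapped between the genotypes. *Fosl1* and *Egr4* were listed at 0 in every library.

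**Figure D5:**
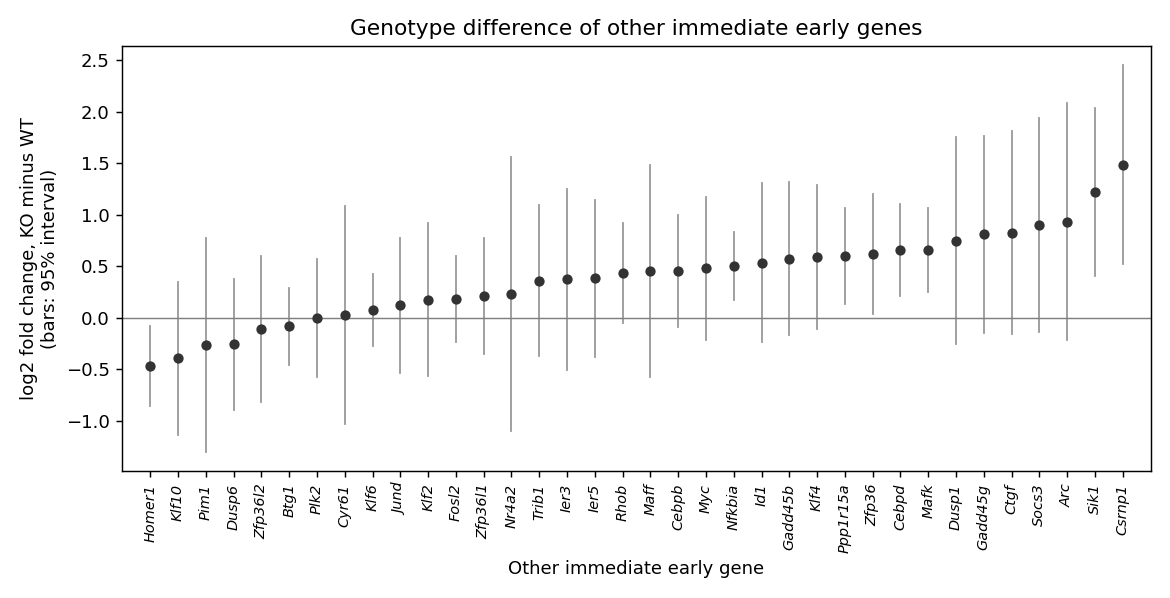
log2 fold change, KO minus WT (vertical axis, points, bars for 95% intervals), of the 36 tested genes on the list of other immediate early genes, sorted from lowest to highest. The points run from -0.47 for *Homer1* to 1.49 for *Csrnp1*, with 30 above 0 and 6 below it.

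Of 30 genes for factors and kinases that act upstream of the group, all were tested and none passed an adjusted p under 0.05 (limma). Their mean log2 levels were higher in KO muscle for 17 and lower for 13, with a median log2 fold change of 0.119 and, after correction for GC content, of 0.00. At an unadjusted p under 0.05, 7 were higher and 3 lower, beside 15.3% and 10.9% of all tested genes. *Map2k2*, the kinase MEK2, read 16.2, 24.3 and 34.4 FPKM in WT muscle, and 48.8, 49.7 and 46.0 FPKM in KO muscle (log2 fold change 1.01, adjusted p = 0.0802, limma). *Srf*, the factor that binds CArG boxes, had a log2 fold change of 0.64 (adjusted p = 0.0950) and *Rps6ka1*, the kinase RSK1, one of 0.61 (adjusted p = 0.108). All KO libraries were above all WT libraries for these 3 genes. After correction for GC content the log2 fold change was 0.45 for *Map2k2*, -0.03 for *Srf* and 0.19 for *Rps6ka1*.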

How the data were processed

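RNA from the gastrocnemius of 3 WT and 3 Kvβ2 KO mice was sequenced as paired reads of 150 bases. The authors used TopHat for alignment to GRCm38 and Cufflinks for FPKM, the unit of the deposited table. Tool versions and the annotation release are not given in the sources used here. FPKM are not counts, so no count model was fitted.

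Expression was compared with limma 3.58.1 (R 4.3.3, variance trend) on log2(FPKM + 0.1), a scale that understates changes of low genes, for genes that averaged 0.5 FPKM or more over the 6 libraries. Benjamini-Hochberg adjustment covered the 12334 genes. Single genes were also compared by exact permutation tests. The script was tested on simulated data. Fragments per library were estimated from the steps between low values of 2721 genes with 1 transcript of 1500 to 6000 bases. The depth chosen was the one that put the largest share of low values near a whole fragment. At that depth 90.9% to 94.7% of 435 to 476 low values per library lay within 0.15 of a whole fragment. The depth was picked by this share, so the share is not a separate check of it. Fragments per gene are approximate, since they rest on the length of the longest transcript. Each library is a separate mouse, and no litter or batch is given in the sources used here.

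Gene coordinates, overlaps and GC content came from GENCODE vM21 (GRCm38), in which 32935 of 37979 identifiers were found, and promoters from RefSeq (GRCm38.p6). GC content was corrected in each library by a loess curve of span 0.3. The genes and lists were chosen with earlier results of these data known. Named genes are the 10 of the group, *Kcnab2*, the called genes and the 3 largest differences of each list that is not a marker list, and the 5 genes closest to the mean profile of the group. *Homer1*, *Nr4a2*, *Jund*, *Fosl1*, *Egr4*, *Atf4*, *Asns*, *Mthfd2*, *Prdx2* and the antisense gene at *Jun* were added after their values were seen. Some genes that the rule names are not reported here. The alternatives were other pseudocounts, filters, scalings, weights and a replicate block, and each library left out in turn.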

Additional observations from a re-analysis of the deposited data

How the results depend on the processing

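None of the 8 tested immediate early genes and none of the 36 other immediate early genes passed an adjusted p under 0.05 in any limma fit except that with array weights, where 7 and 16 passed, the median of the 8 was 2.06, and 1863 genes were higher and 1284 lower over the whole table. The median log2 fold change of the 8 was 0.957 with a pseudocount of 1 FPKM, 1.05 after GC correction and 0.81 to 1.67 with each library left out. Of all tested genes, 31 were called higher and 9 lower. Counts under the alternatives are those of each fit, and the genes they share were not counted. The number called higher was 7 with a pseudocount of 1 FPKM, 9 with no filter, 11 with quantile normalization, 12 with no variance trend, 6 with GC correction and 6 to 19 without each library. The number called lower was 4 with a pseudocount of 1 FPKM and 5 to 19 without each library, with 5 without KO replicate 1 and 19 without WT replicate 8. Among alternatives chosen after seeing the data, genes above 0 in every library gave 1 higher and 0 lower, where the number of genes tested was 12092. The direction of *Jun* turned after GC correction, to -0.149 with and without the block, and the difference in *Nr4a3* ranged from -0.154 to 0.603 without each library. The cause of these changes was not tested. With the replicate number as a block, 0 of the 8 genes passed, the median was 1.34, 6 genes were higher and 7 lower over the whole table, and with GC correction added 5 were higher. Deviations of same-numbered libraries correlated at -0.0252, -0.0797 and 0.0343, so the numbers were not taken as a pairing. Genes under about 20 fragments, *Fosb* and *Junb* in WT muscle among them, are limited by depth.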

Other observations

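The integrated stress response, in which ATF4 drives genes of amino acid supply and redox balance and can induce *Atf3*, was covered by a list of 15 genes, of which 11 were tested. None passed an adjusted p under 0.05 (lowest 0.0667, limma), while 6 were higher at an unadjusted p under 0.05 and 0 were lower, against 15.3% and 10.9% of all tested genes. The median log2 fold change was 0.613 and, after correction for GC content, 0.204. The mean log2 level was higher in KO muscle for 8 genes and lower for 3, which were *Atf4* itself, *Asns* and *Mthfd2*. Their log2 fold changes were -0.10, -0.21 and -0.04 (adjusted p = 0.571, 0.509 and 0.916, limma). After correction for GC content *Atf4* was at -0.43 (unadjusted p = 0.00696, adjusted p = 0.303, limma). *Phgdh*, which starts serine synthesis, had WT values of 0.610, 0.773 and 0.566 FPKM against KO values of 1.6, 2.58 and 1.53 FPKM (log2 fold change 1.39, adjusted p = 0.0670, limma). *Chac1*, which degrades glutathione, gave 5.79, 14.0 and 6.28 FPKM in the WT libraries and 25.9, 18.5 and 21.9 FPKM in the KO libraries (log2 fold change 1.44, adjusted p = 0.0750, limma). Neither had the library order of *Fos*, and KO replicate 8 was not the highest library for either gene. *Ddit4*, an inhibitor of mTORC1, overlapped between the genotypes, with WT values of 3.53, 2.67 and 16.1 FPKM against KO values of 9.39, 15.3 and 24.1 FPKM (log2 fold change 1.48, adjusted p = 0.200, limma).

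Of 16 tested genes for AP-1 partners and turnover, 7 had a higher and 9 a lower mean log2 level in KO muscle, and the median log2 fold change was -0.04. None passed an adjusted p under 0.05 (lowest 0.075, limma), and at an unadjusted p under 0.05, 2 were higher and 5 lower, beside 15.3% and 10.9% of all tested genes. *Jdp2*, a repressor that pairs with Jun proteins, read 1.10, 0.589 and 1.29 FPKM in WT muscle, and 1.67, 2.42 and 1.90 FPKM in KO muscle (log2 fold change 0.99, adjusted p = 0.107, limma). *Mafg*, a small leucine zipper factor of the MAF family, had a log2 fold change of 0.54 (adjusted p = 0.0997, limma). After correction for GC content the log2 fold change was 0.59 for *Jdp2* and 0.05 for *Mafg*, and the median of the list was -0.01.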
